A study of Homo sapiens with 4 samples.

Results

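A total of 405 accessible regions were strong in control RKO cells and were listed in neither library made after CHD7 knockdown. They were selected on the deposited peak lists themselves. Peaks of the 4 lists on chromosomes 1 to 22 and X were merged where they shared 1 bp or more, which gave 20450 regions. Of these, 8557 held a peak in both control lists, and 3427 of the 8557 were strong, meaning that the mean of their percentile ranks in both control lists was 70 or more. The rank, from 0 to 100, orders the peaks of one list by -log10 p, and a region takes the rank of its highest peak. The 405 lost regions were 11.8% of the strong regions, and another 747 strong regions were listed in 1 shCHD7-2 library (21.8%) and 2275 in both (66.4%). The presence of control peaks, their rank and the absence of shCHD7-2 peaks chose these regions, so those values are given as a description without a test.

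CHD7 is a chromodomain helicase that uses ATP to move nucleosomes. It is known for binding enhancers and promoters, and mutations of the gene cause CHARGE syndrome. ATAC-seq reads open chromatin through the Tn5 transposase, which inserts adapters where DNA is not wrapped in nucleosomes or otherwise covered, so that promoters, enhancers and insulators stand out as narrow peaks of reads. RKO is a human colon cancer cell line. Control cells carried a control lentivirus and knockdown cells stably carried a lentivirus for a single hairpin, shCHD7-2, and both were grown in the same medium. Each group held 2 libraries (n = 2), and the labels do not say whether these came from separate cultures or infections, so the spread between them may be technical. The lists hold no transcript level, so neither the depletion of CHD7 nor markers of the cell type were checked. The peaks are on hg19, and gene positions and sequences of that build were not used here, so the regions are given by position and not by the nearest gene.

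The lists differed in length and depth. Control replicates 1 and 2 held 13257 and 12092 peaks, and shCHD7-2 replicates 1 and 2 held 7199 and 8715. The library background is the read pileup that the caller took as its genome-wide expectation, and it was 0.916 and 0.843 reads in the control libraries and 1.40 and 1.62 reads in the shCHD7-2 libraries. The knockdown lists were thus shorter although their libraries were the deeper ones by this measure. Library quality and the knockdown both separate the same pairs of libraries and cannot be told apart in any region's absence.

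Of all 8557 regions called in both control lists, strong or not, 34.4% were lost. Within the strong regions the share fell with rank. Between ranks 70 and 75, 138 of 583 regions were lost (23.7%, 95% Wilson interval 20.4% to 27.3%). Between ranks 85 and 90 it was 49 of 593 (8.26%, 6.31% to 10.8%), and from rank 95 it was 6 of 550 (1.09%, 0.501% to 2.36%). Such intervals take in the counting error alone. The number of lost regions depended on each library. It was 526 without control replicate 1, 643 without control replicate 2, 655 without shCHD7-2 replicate 1 and 906 without shCHD7-2 replicate 2, because a single list then decides the call in one group.

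**Figure D1:**
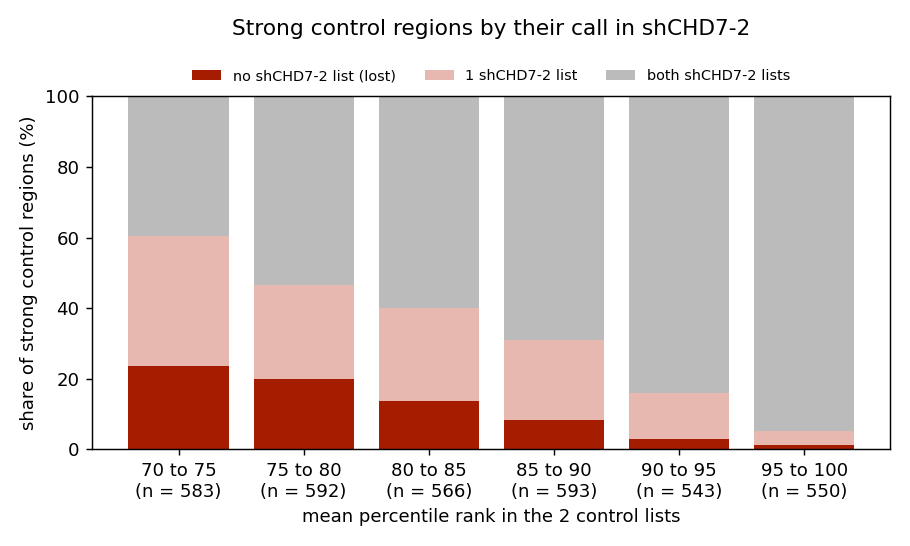
Share of the 3427 strong control regions (y axis, %) that were listed in no, 1 or both shCHD7-2 libraries, in 6 bands of mean percentile rank in the control lists (x axis, number of regions under each bar). The share in no shCHD7-2 list fell from 23.7% in the lowest band to 1.09% in the highest.

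The highest ranked lost region was chr10:17242909-17243799, with 34 reads at its summit in control replicate 1 and 41 in control replicate 2. Its control summits lay 1 bp apart. The nearest shCHD7-2 peaks were 14.5 kb away in replicate 1 and 4.66 kb away in replicate 2.

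The second, chr2:187350491-187351649, had 38 and 36 reads in control replicates 1 and 2 and was 1159 bp wide. No shCHD7-2 peak lay within 3297 kb of it in either list. The third, chr6:75994021-75995010, had 33 and 32 reads, and the nearest shCHD7-2 peaks were 40.4 kb and 40.3 kb away. The distance to the nearest shCHD7-2 peak thus differed widely among the first 3 regions.

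The fourth, chr2:197504146-197504852, had 36 and 27 reads and a fold enrichment over the local background of 11.6 and 9.46. The fifth, chr6:105307389-105308199, had 30 and 29 reads, with no peak within 3861 kb in shCHD7-2 replicate 1 and 2472 kb in replicate 2. In the sixth, chr15:93447167-93447897, summits of 35 and 38 reads lay 5 bp apart, and a peak of shCHD7-2 replicate 2 was listed 2.13 kb away. In each of the 10 highest ranked regions the summits of both control libraries lay within 77 bp of each other.

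The remaining 4 of the first 10 were chr4:128885992-128886919 (33 and 29 reads), chr5:102455440-102456561 (28 and 29 reads), chr1:193090775-193091589 (32 and 26 reads) and chr1:197115197-197116259 (34 and 26 reads). For the last of these, no peak of shCHD7-2 replicate 1 lay within 8628 kb, whereas one of replicate 2 lay 54.3 kb away. The widest lost region was chr2:189156337-189158014, at 1678 bp, with 38 and 31 reads.

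**Figure D2:**
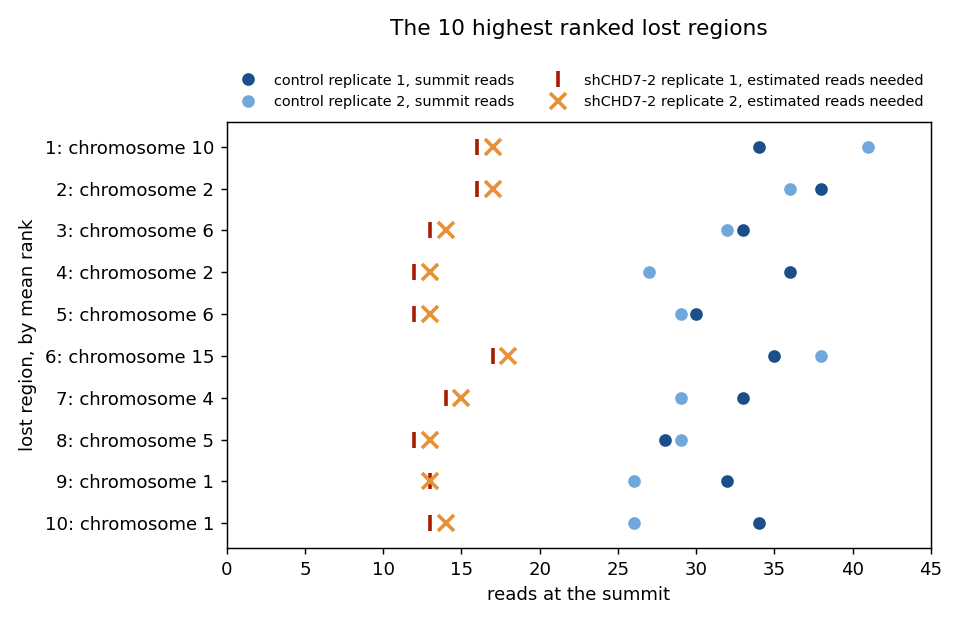
Reads at the summit (x axis) of the 10 lost regions with the highest mean rank (y axis, in order of rank) in the control libraries (dots), with the reads estimated to be needed for a call in each shCHD7-2 library (line and cross marks). Control summits held 26 to 41 reads and the estimated calling levels were 12 to 18 reads. Reads are not scaled for depth, and the shCHD7-2 libraries had the higher library background.

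The rank of 70 divides a continuous range, and the lost regions closest to it are given by their reads in control replicates 1 and 2. Just inside were chr3:49131399-49132226 (mean rank 70.06, 15 and 18 reads), chr20:45034558-45035661 (70.12, 17 and 19 reads) and chr12:104350565-104351432 (70.13, 20 and 18 reads). Just outside were the lost regions chr12:27863177-27864082 (69.96, 15 and 15 reads), chr2:36665536-36666060 (69.96, 16 and 13 reads) and chr12:2113305-2113935 (69.91, 14 and 13 reads). In control replicate 1 the summits overlapped between the 3 inside and the 3 outside, and in control replicate 2 those inside were all higher.

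Over the 405 lost regions, summits held 12 to 41 reads in control replicate 1 (median 20) and 11 to 41 reads in control replicate 2 (median 19). These were 21.8 and 22.5 times the library background at the median. The summits of both control libraries were within 100 bp of each other in 298 of the regions (73.6%), a share close to that of the strong regions listed in all 4 libraries (72.3%). Each control list had a single peak in 388 of the 405 regions (95.8%). Both ranks were 70 or more in 256 of them (63.2%), and in the other regions one list carried the mean over the threshold. Both ranks reached 70 more often in strong regions listed in all 4 libraries (87.7%) and in those listed in 1 shCHD7-2 library (68.8%). These sets were not matched by rank. The median mean rank was 77.4 in lost regions and 88.2 in regions listed in all 4 libraries.

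Lost regions had narrower control peaks and a lower local background than strong regions listed in all 4 libraries. The median control peak was 646 bp in replicate 1 and 655 bp in replicate 2, against 797 bp and 771 bp for regions listed in all 4 libraries. Rank differs between these sets, so the values were also set side by side within rank bands. Between ranks 70 and 80, the medians were 611.5 bp and 610 bp in 256 lost regions and 683 bp and 663 bp in 547 regions listed in all 4 libraries. Between 80 and 90 they were 694 bp and 683 bp in 127 lost regions against 744 bp and 718 bp in 750. From 90 they were 749 bp and 795 bp in 22 lost regions against 888 bp and 857 bp in 978. Peaks of lost regions were narrower than those of regions listed in all 4 libraries in each band and in both control lists. Lost regions also had a lower median mean rank than these within each band, so the bands did not make rank equal. Medians of strong regions listed in 1 shCHD7-2 library lay in between in each band. They were 635 bp and 613 bp from 70 to 80 and 728.5 bp and 706 bp from 80 to 90. From 90 they were 812 bp and 797 bp, close to lost regions in control replicate 2. Narrow peaks were thus not particular to lost regions.

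The local background, which the caller takes from a window around a peak, was divided by the library background. No input library is among the 4 samples, so a peak's own reads may count in it, and their part was not tested. For lost regions of rank 70 to 80 the ratio was 1.75 in control replicate 1 and 1.78 in control replicate 2 at the median. It was 2.12 and 2.09 in regions of this rank listed in all 4 libraries. From rank 90, with 22 lost regions against 978, the same medians were 2.51 and 2.47 against 3.41 and 3.42. Strong regions listed in 1 shCHD7-2 library stood in between, at 1.92 and 1.92 from rank 70 to 80 and 2.82 and 2.73 from rank 90. Fold enrichment between ranks 70 and 80 was slightly higher in lost regions than in regions listed in all 4 libraries, at 7.25 and 7.26 against 7.09 and 6.91. From rank 90 it was 9.48 and 8.94 in lost regions against 9.19 and 9.09, and over all strong regions it was 7.58 and 7.55 against 8.15 and 7.99, so its direction was not the same throughout. Within each band lost regions also had a lower mean rank than regions listed in all 4 libraries. Its medians were 74.6 against 75.8 from 70 to 80, 83.8 against 85.4 from 80 to 90, and 93.0 against 95.3 from 90. The part of rank in these differences was not tested.

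A region absent from a list may lie just under the calling level. At the library background, a summit needed 8 reads to be listed in either shCHD7-2 library, against 6 in either control library. If the local background of a lost region stood in the same ratio to the library background as in the control lists, it needed 8 to 24 reads in shCHD7-2 replicate 1 and 8 to 26 in replicate 2, with a median of 11 in each. Control summits were compared with this estimate as raw reads, not scaled to the deeper shCHD7-2 libraries. In all 405 lost regions both control summits reached that estimated number of reads, for both shCHD7-2 libraries. This held for all 2275 regions listed in all 4 libraries as well, and for 747 and 745 of the 747 listed in 1, so it follows from the rank that chose them and sets no group apart. The estimate is approximate, because 17.2% and 14.8% of the 2275 regions listed in all 4 libraries were called with fewer reads than it gives in shCHD7-2 replicates 1 and 2, and a peak also had to reach 200 bp in width.

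Strong regions of the same rank that kept their peaks were often near this level too. Between ranks 70 and 80, regions listed in all 4 libraries had median summits of 20 and 19 reads in the control lists and 15 and 16 reads in the shCHD7-2 lists. In 54.5% and 53.6% of them the shCHD7-2 summit was at most 3 reads above the estimated calling level or below it. These summits are raw reads, not scaled for depth. The library background was 1.40 and 1.62 reads in shCHD7-2 against 0.916 and 0.843 in control. The fall in median summit was thus larger relative to the library background than in raw reads. The strong regions listed in a single shCHD7-2 library had median summits of 12.5 reads in 248 regions called in replicate 1 and 14 reads in 499 called in replicate 2. The lists show no signal below the calling level, so how far below it the lost regions lay was not measured.

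Around lost regions, peaks of the control lists lay about as close as around regions listed in all 4 libraries, whereas peaks of the shCHD7-2 lists lay farther away. The nearest other peak of the same list was at a median of 48.3 kb in control replicate 1 and 57.8 kb in control replicate 2. Around the regions listed in all 4 libraries these medians were 52.2 kb and 54.6 kb. The nearest peak to a lost region lay at a median of 283 kb in shCHD7-2 replicate 1 and 183 kb in shCHD7-2 replicate 2. Around regions listed in all 4 libraries, leaving out the region itself, it lay at 87.8 kb and 73.6 kb. No peak lay within 1 Mb in shCHD7-2 replicate 1 for 77 lost regions (19.0%) and in replicate 2 for 51 (12.6%), against 1.80% and 1.36% of the regions listed in all 4 libraries. Strong regions listed in 1 shCHD7-2 library stood in between, with medians of 132 kb and 105 kb. Of these, 6.83% and 4.02% had no other peak within 1 Mb in shCHD7-2 replicates 1 and 2. The sets were not matched by rank here. The rule itself has a part in these distances, since other regions of the same set count as neighbours, and they carry no test.

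Neighbouring peaks were not used to choose the lost regions, and their number was compared between groups. Within 25 kb of the midpoint of a lost region, and outside every lost region, control replicates 1 and 2 had 130 and 124 other peaks, and shCHD7-2 replicates 1 and 2 had 36 and 50. The means were 127 ± 4.24 in control and 43 ± 9.90 in shCHD7-2 (SD, n = 2 each), which gave -1.56 as the log2 ratio of shCHD7-2 to control (exact two-sided permutation test, p = 0.33). The groups did not overlap and differed by more than the spread between replicates, but with 2 libraries against 2 no p below 0.33 was possible. The ratio was -0.67 for all peaks of the lists.

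Around the regions listed in all 4 libraries, and outside every one of them, the counts within 25 kb were 600 and 541 in control and 271 and 331 in shCHD7-2, a log2 ratio of -0.92. The ratio around lost regions minus this ratio was -0.64, and it was between -0.79 and -0.52 in the 4 pairings of a control and a shCHD7-2 library (exact two-sided permutation test of the difference, p = 0.33, the smallest possible, n = 2 each). Within 100 kb the difference was -0.45 (exact permutation p = 0.33). Regions listed in all 4 libraries counted as neighbours of lost regions but not of each other, and lost regions the reverse. The ratios thus counted unlike neighbours, and the sets were not matched by rank. Around the strong regions listed in 1 shCHD7-2 library the log2 ratio was -1.05 within 25 kb and -1.18 within 100 kb. At the wider distance that is closer to the -1.33 around lost regions than to the -0.88 around regions listed in all 4 libraries, so a low ratio there was not particular to lost regions. Within 10 kb, where shCHD7-2 replicates 1 and 2 had 15 and 30 peaks, it was -0.24 (exact permutation p = 0.667) and it ran from -0.78 to 0.17 in the 4 pairings, so a difference was not shown at that distance.

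**Figure D3:**
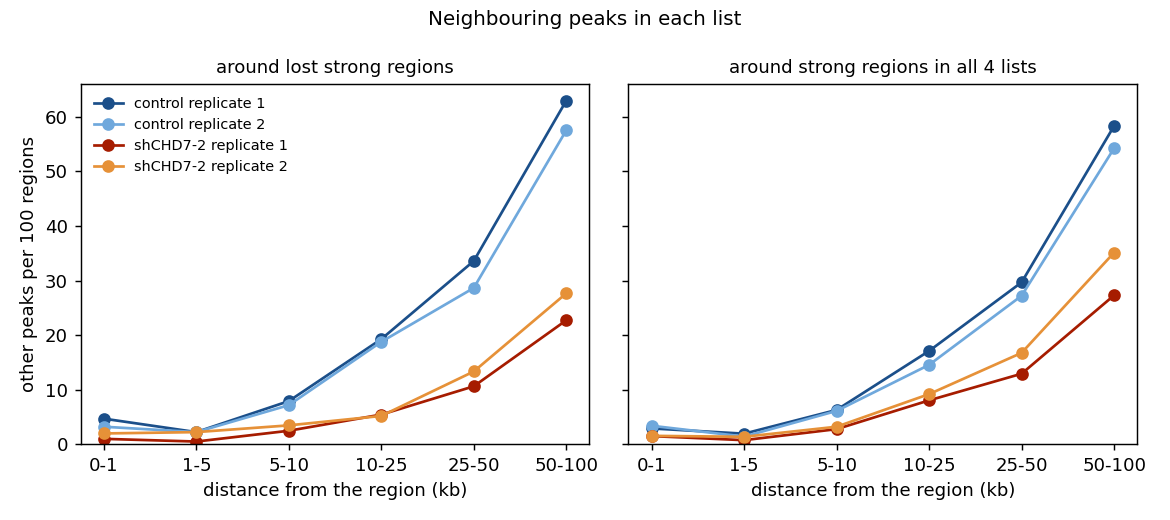
Other peaks of each list per 100 regions (y axis) by distance from the edge of the region (x axis, kb; the bins widen with distance), leaving out peaks of the set's own regions, around the 405 lost regions (left) and the 2275 strong regions listed in all 4 libraries (right). Between 10 and 25 kb the control lists had 19.3 and 18.8 peaks per 100 lost regions and the shCHD7-2 lists had 5.43 and 5.19, while on the right the control lists had 17.1 and 14.5 and the shCHD7-2 lists had 8.04 and 9.19.

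A shCHD7-2 peak lay within 1 kb of 11 of the 405 lost regions (2.72%) and within 5 kb of 19 (4.69%). The shares were nearly the same around the 2275 regions listed in all 4 libraries, with another shCHD7-2 peak within 1 kb of 65 (2.86%) and within 5 kb of 108 (4.75%). The closest was at chr17:66508370-66508914, with 27 and 19 reads in the control libraries and a peak of shCHD7-2 replicate 2 at 119 bp. At chr3:191047713-191048462, with 27 and 25 reads in control, both shCHD7-2 lists had a peak within 1 kb, at 632 bp and 440 bp. The one whose nearest peak in either list was most distant was chr22:47150029-47150678 (17 and 14 reads in control), at 4807 kb from the nearest peak of shCHD7-2 replicate 1 and 5372 kb from that of replicate 2.

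Many lost regions had another lost region as their nearest strong neighbour. For 121 of the 405 (29.9%, 95% Wilson interval 25.6% to 34.5%), the nearest other strong region was itself lost. For the 2275 strong regions listed in all 4 libraries this share was 7.96% (6.91% to 9.14%), and for those listed in 1 shCHD7-2 library it was 16.7% (14.2% to 19.6%). In rank bands 70 to 80, 80 to 90 and 90 to 100 the share was 28.1%, 31.5% and 40.9% in lost regions, against 8.78%, 9.73% and 6.13% in regions listed in all 4 libraries. More lost regions, 155 (38.3%), had a region listed in all 4 libraries as their nearest strong neighbour. Where the nearest strong neighbour lay within 10 kb, it was lost for 2 of 15 lost regions (13.3%, 3.74% to 37.9%). The same held for 7 of 86 regions listed in all 4 libraries (8.14%). Of all strong regions, 11.8% were lost. Neighbours are counted from both sides and are not independent, so these shares carry no test.

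When strong regions were read in order along each chromosome, 191 lost regions stood in runs of 2 or more with no other strong region between them, and 214 stood alone. There were 28 runs of 3 or more, with 113 lost regions over 94.4 Mb in total. Between these regions control replicates 1 and 2 listed 222 other peaks each, and shCHD7-2 replicates 1 and 2 listed 16 and 41. In 12 of the 28 runs neither shCHD7-2 list held a peak. A run ended at any strong region with a shCHD7-2 peak, so no such region could lie inside one. The low shCHD7-2 counts are therefore in part set by the rule. The whole lists held 13257 and 12092 peaks in control and 7199 and 8715 in shCHD7-2. The runs were found from the calls themselves, and the counts describe them.

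The run with most lost regions was on chromosome 4, chr4:113739001-122745418, with 8 lost regions over 9.01 Mb. The control lists held 15 and 14 other peaks there and each shCHD7-2 list held 1. Its highest ranked region, chr4:120987551-120988702, had 29 and 33 reads in control replicates 1 and 2. The next strongest, chr4:114389188-114390013, had 32 and 21 reads.

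On chromosome 2 the run chr2:183988996-190539393 held 7 lost regions, among them the second ranked and the widest of all 405. Its other peaks numbered 4 and 3 in the control lists, and no shCHD7-2 peak was listed over its 6.55 Mb. On chromosome 1 the run chr1:186797728-197116259 held 6 lost regions over 10.3 Mb, including the ninth and the tenth in rank. There the control lists held 6 and 4 other peaks and the shCHD7-2 lists none.

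Of the 28 runs, the one with most lost regions per Mb was on chromosome 11, where 6 lost regions lay within chr11:10562151-10921785, a stretch of 0.36 Mb. Their summits held 17 to 28 reads in control replicate 1 and 14 to 23 in control replicate 2. The strongest was chr11:10830228-10831326 with 28 and 17 reads. No list held any other peak in this stretch, so every peak there in the control lists belonged to a lost region. A second dense run, chr12:93771493-94071826, held 4 lost regions in 0.30 Mb, with 18 to 27 reads in control replicate 1 and 13 to 22 in control replicate 2. On chromosome 3, chr3:48594151-49396309 held 5 lost regions in 0.80 Mb, and there the control lists had 7 and 8 other peaks and the shCHD7-2 lists 2 each.

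**Figure D4:**
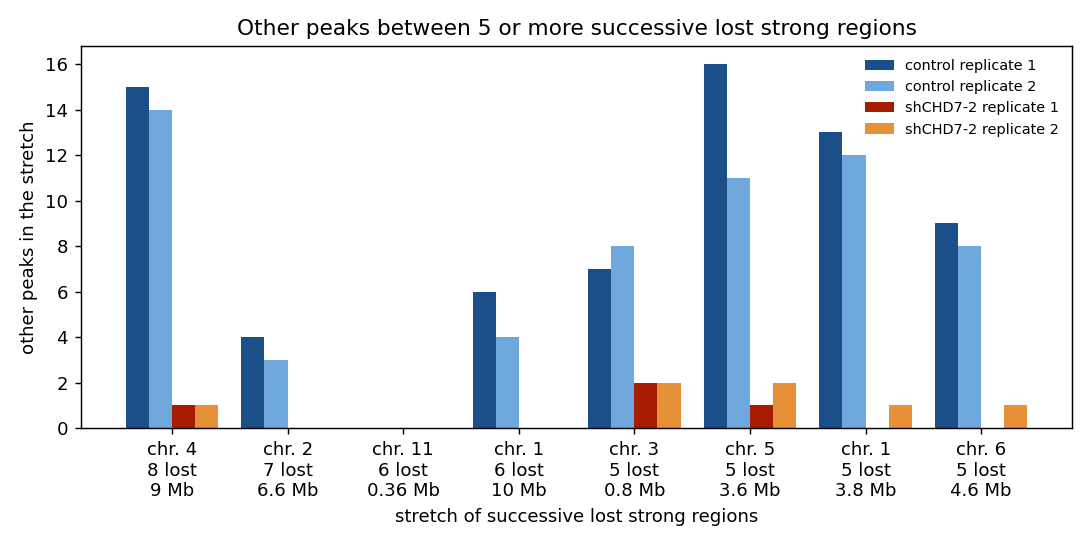
Other peaks per list (y axis) in the 8 stretches of 5 or more successive lost strong regions (x axis, with the chromosome, the number of lost regions and the length of each). Over the 8 stretches the control lists held 70 and 60 other peaks and the shCHD7-2 lists 4 and 7. A stretch ends at any strong region with a shCHD7-2 peak, so these counts are in part set by the rule.

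The share of strong regions lost is given by chromosome. It was highest on chromosome 12, with 31 of 144 (21.5%, 95% Wilson interval 15.6% to 28.9%), followed by chromosome 17 with 7 of 36 (19.4%, 9.75% to 35.0%) and chromosome 4 with 36 of 200 (18.0%, 13.3% to 23.9%). Chromosome 3 lost 40 of 250 (16.0%, 12.0% to 21.1%). Low shares were found on chromosome 8, with 17 of 256 (6.64%, 4.19% to 10.4%), and on chromosome 9, with 14 of 217 (6.45%, 3.88% to 10.5%). They were also low on the X chromosome, with 6 of 106 (5.66%, 2.62% to 11.8%), and on chromosome 16, with 3 of 54 (5.56%, 1.91% to 15.1%).

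The lowest share was on chromosome 19, with 1 of 34 (2.94%, 0.521% to 14.9%). In regions of rank 70 to 80 alone, chromosome 12 lost 19 of 57 (33.3%), chromosome 4 lost 20 of 66 (30.3%), chromosome 8 lost 12 of 74 (16.2%) and chromosome 9 lost 10 of 68 (14.7%). In the same band chromosome 13 lost 9 of 27 (33.3%), chromosome 3 lost 20 of 74 (27.0%), chromosome 17 lost 5 of 21 (23.8%) and the X chromosome lost 3 of 36 (8.33%). Chromosome 17, which stood above chromosomes 3 and 4 over all strong regions, stood below both there. The lost call is the selection itself, and neighbouring regions are not independent, so these shares are a description without a test and the intervals are too narrow where losses run together.

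**Figure D5:**
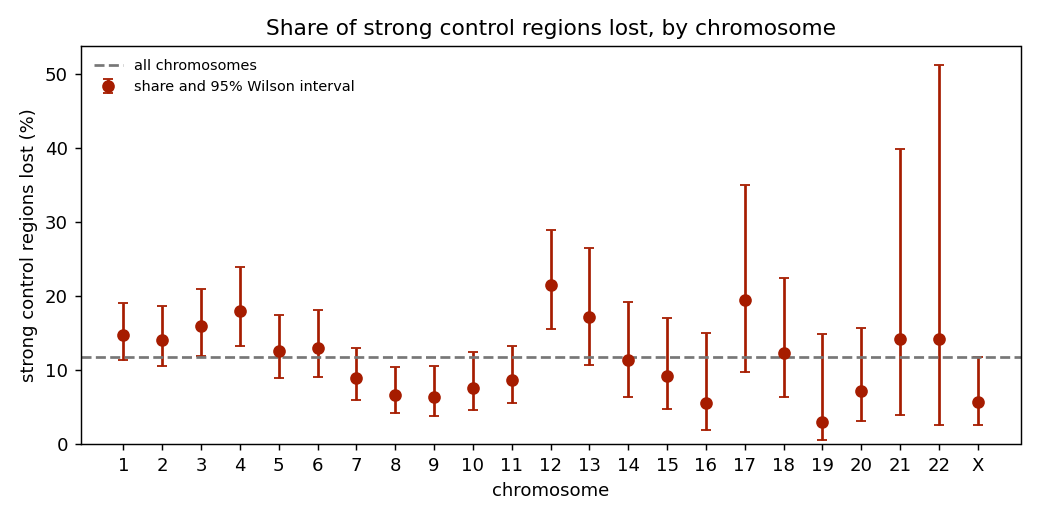
Share of strong control regions lost on each chromosome (y axis, %; points with 95% Wilson intervals for counting error) and over all chromosomes (dashed line, 11.8%). The shares ran from 2.94% on chromosome 19 to 21.5% on chromosome 12.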

How the data were processed

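ATAC-seq peak lists of RKO cells (2 control and 2 shCHD7-2 libraries, grouped by their titles) were analysed as deposited. The submitters' processing notes name Bowtie2 2.2.5, SAMtools 1.9, MACS2 2.1.2, deepTools 3.3.0 and hg19, with no settings, and treatment of duplicates and of the Tn5 offset is not given in the sources used here. Peaks were called per library. The fold enrichment (a ratio), the -log10 p and the -log10 q deposited by the authors were used as they stand, and the deposited score was not used. Listed q values were under 0.05.

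Summit reads and background were solved from fold enrichment and p (pseudocount of 1), within 0.001 in -log10 p for 100% of peaks. Local backgrounds above the library background fell on steps of 0.02 reads in each list, so the 4 lists share a step, from which the library backgrounds were taken to be comparable. In a check of the code on simulated data, 100% of 12358 pileups and 100% of planted losses among 13257 peaks were recovered. The pileups were drawn with the formula used to solve them. The planted losses were high ranked peaks deleted from jittered copies of control replicate 1. Both results therefore test the code alone and not how real lists disagree.

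The regions and comparisons were chosen with earlier results of these data known. Named regions were the 10 highest ranked, 3 on each side of rank 70, the widest, and those closest to and farthest from a shCHD7-2 peak. Members of runs and the chromosome 3 region with a peak of both shCHD7-2 lists within 1 kb were named after their values were seen. Peaks near lost regions were compared by an exact permutation test over 6 assignments of libraries. Shares have 95% Wilson intervals. Gene starts, GC content, motifs and sequences were not analysed, for lack of hg19 annotation here. The work used SciPy 1.17.1, pandas 2.3.3, NumPy 2.4.6 and matplotlib 3.10.9 under Python 3.11.15.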

Additional observations from a re-analysis of the deposited data

How the results depend on the processing

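The number of lost strong regions was 267 at a rank threshold of 75 (9.39% of the strong regions) and 256 where the lower of both control ranks had to reach 70 (9.26%). The share was 14.2% at a threshold of 65, 15.1% with ranks by fold enrichment and 13.6% with lists of equal length. Ranks by -log10 q, an overlap of at least 50% of the shorter peak, a -log10 q of at least 2, and counting shCHD7-2 peaks within 500 bp each left between 399 and 427 lost regions. Leaving out one library gave 526 to 906 lost regions and shares of 14.5% to 26.4%. The log2 ratio of other peaks within 25 kb kept its sign under each alternative run. It was -1.21 within 10 kb, -1.33 within 100 kb and -0.90 for shares of each list, and it ran from -1.43 to -1.02 without one library. With the replicate number as a block it was -1.58 (exact sign-flip test, p = 0.5, the minimum for 2 pairs). The labels do not say whether same-numbered libraries were handled together. The differences in calls between replicates 1 and 2 correlated at 0.0116 between the groups over 20450 regions. That value alone cannot tell whether the libraries were paired. The lists give no reads under the calling level, which limits what can be said of a lost region. Alternatives for gene starts and motifs were not run.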

Other observations

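Lost strong regions were spread over much of the genome. Of 297 windows of 10 Mb with a strong control region, 181 held a lost one and 16 held 5 or more. A further 44 windows had 10 or more strong regions and no lost one. On unplaced and unlocalised scaffolds, 5 of 24 regions were strong by the same rule and 0 of these 5 were lost.

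Among the windows with most lost strong regions, the one from 10 to 20 Mb on chromosome 11 held 9 of 23, and the one from 120 to 130 Mb on chromosome 4 held 8 of 10. The window from 70 to 80 Mb on chromosome 12 held 7 of 10. These windows were chosen for their counts, which are a description.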
